A study of Mus musculus with 6 samples.

Results

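CD4 T cells that carried Foxp3 RNA were described across genes, surface antibody tags and T cell receptor (TCR) sequences in tumours of the mouse glioma line CT2A. They numbered 214 of the 7847 deeply sampled barcodes with a TCR contig, with 129 cells on day 13 and 85 on day 19. The cells were selected on their RNA counts: at least 1 unique molecular identifier (UMI, 1 captured molecule) each of Cd4 and Foxp3, none of Cd8a, Cd8b1 and the proliferation gene Mki67, and no more than 3 UMIs of the macrophage genes C1qa, Lyz2 and Csf1r together. Each barcode also had 5000 or more gene UMIs, of which mitochondrial genes made up 10% or less. The 515 CD4 cells that passed the same gate without a Foxp3 UMI, 305 on day 13 and 210 on day 19, served as the comparison and are called Foxp3-negative cells.

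T cells were sorted for CD3 and for CD4 or CD8 from tumours grown in the brains of wild-type C57BL/6J mice aged 6 to 8 weeks, and no treatment is given in the labels. Day 13 drew on 16 mice, 4 to a pool, and day 19 on 4 mice. Each day was a single capture with 10x 5' chemistry, read as gene expression, antibody tags and TCR contigs. The contigs of each day came as 4 tables, called contig sets here. Which mouse or pool each set stems from was not stated in the labels. With 1 capture a day, no difference between days or cell classes has a replicate test. Day and capture cannot be told apart, values of contig sets are descriptions, and all intervals cover counting error only, at the 95% level.

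Foxp3 is the transcription factor that defines regulatory T cells, which restrain other immune cells and accumulate in many tumours, gliomas included. These cells use large amounts of interleukin-2 (IL-2) through the receptor chain CD25 but make little of it themselves, and they act through inhibitory receptors such as CTLA-4, through secreted cytokines and through enzymes that make adenosine. Most arise in the thymus with their own set of TCRs, and some derive from conventional CD4 cells, which is why the receptors of Foxp3-positive and Foxp3-negative cells were compared.

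Within single contig sets, 4 clonotypes were seen in more than 1 Foxp3-positive cell of the gate, and their junction sequences are printed because they make up the clonal repetition of the class by this definition. A clonotype meant cells of 1 contig set with 1 TCR alpha (TRA) and 1 TCR beta (TRB) contig each, equal in V genes and in the bases of both CDR3s, the loops that contact the peptide. Capitals mark the bases between the codon of the conserved cysteine and the closing phenylalanine or tryptophan codon.
Day 13, set 2, TRAV16N with TRAJ42, alpha: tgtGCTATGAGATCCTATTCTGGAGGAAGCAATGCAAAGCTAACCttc
Day 13, set 2, TRBV15 with TRBJ1-4, beta: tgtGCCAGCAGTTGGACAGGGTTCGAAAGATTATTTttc
Day 13, set 4, TRAV13D-2 with TRAJ33, alpha: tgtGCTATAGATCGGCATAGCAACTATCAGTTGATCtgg
Day 13, set 4, TRBV12-2+TRBV13-2 with TRBJ1-2, beta: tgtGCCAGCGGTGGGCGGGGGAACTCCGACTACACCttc
Day 19, set 2, TRAV14-1 with TRAJ31, alpha: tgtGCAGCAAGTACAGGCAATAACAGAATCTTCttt
Day 19, set 2, TRBV15 with TRBJ1-1, beta: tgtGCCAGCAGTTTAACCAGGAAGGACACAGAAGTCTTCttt
Day 19, set 2, TRAV6D-4 with TRAJ28, alpha: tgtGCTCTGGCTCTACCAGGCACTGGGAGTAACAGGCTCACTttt
Day 19, set 2, TRBV1 with TRBJ2-2, beta: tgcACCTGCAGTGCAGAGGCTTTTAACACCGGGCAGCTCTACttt
Each of the 4 clonotypes held 2 Foxp3-positive cells of the gate, and the set 4 clonotype of day 13 also held 1 Foxp3-negative cell. The joint name TRBV12-2+TRBV13-2 is written as in the contig table.

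The largest Foxp3-negative clonotype of the gate is printed for contrast, with 1 clonotype of each day that held cells on both sides of the Foxp3 boundary. The first, from day 19, held 11 Foxp3-negative cells and no Foxp3-positive cell of the gate. The other clonotypes, 1 from each day, each held 1 Foxp3-positive and 2 Foxp3-negative cells of the gate, together with 1 cycling Foxp3-positive cell outside it.
Foxp3-negative, day 19, set 2, TRAV6-7-DV9 with TRAJ31, alpha: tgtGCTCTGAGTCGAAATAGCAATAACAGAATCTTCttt
Foxp3-negative, day 19, set 2, TRBV31 with TRBJ1-1, beta: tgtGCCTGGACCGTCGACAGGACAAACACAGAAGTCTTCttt
Shared, day 13, set 1, TRAV14D-2 with TRAJ23, alpha: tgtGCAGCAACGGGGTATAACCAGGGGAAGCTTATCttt
Shared, day 13, set 1, TRBV12-2+TRBV13-2 with TRBJ2-1, beta: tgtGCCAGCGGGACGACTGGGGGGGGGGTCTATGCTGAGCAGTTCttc
Shared, day 19, set 2, TRAV5-4 with TRAJ37, alpha: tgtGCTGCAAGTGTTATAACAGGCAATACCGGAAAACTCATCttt
Shared, day 19, set 2, TRBV13-1 with TRBJ1-1, beta: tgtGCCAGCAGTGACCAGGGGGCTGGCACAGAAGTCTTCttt

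The captures held 144565182 and 81224453 gene UMIs, with TCR contigs for 8359 and 4295 barcodes on days 13 and 19. The Foxp3-positive cells summed to 1284307 gene UMIs on day 13 and 813125 on day 19, against 2350071 and 1817294 in Foxp3-negative cells. Their median depth was 8159 UMIs per cell against 6363 on day 13, and 7485 against 7266 on day 19. The 4 contig sets held 18, 48, 34 and 29 Foxp3-positive cells on day 13 and 4, 45, 14 and 22 on day 19, so values of day 19 set 1 rest on 4 cells. No Foxp3-positive barcode occurred on both days or in more than 1 set, although 28 deep barcodes of the series did occur on both days. In day 19 set 2, 35 of 171 gate cells had another multiplexing tag on top, against 0 to 2 cells in each of the other sets. No doublet caller was run. At least 2 TRB contigs were seen in 7.75% of Foxp3-positive and 11.5% of Foxp3-negative cells on day 13, and in 8.24% and 4.29% on day 19.

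RNA of antigen-presenting cells was present in part of the gate and differed between the classes. More than 10 UMIs of the class II genes Cd74, H2-Aa, H2-Ab1 and H2-Eb1 together occurred in 45 of 129 Foxp3-positive cells on day 13 (34.9%, exact binomial interval 26.7 to 43.8%) and in 12.5% of Foxp3-negative cells. On day 19 the shares were 15 of 85 (17.6%, 10.2 to 27.4%) and 8.57%. All 20 genes of a class II and myeloid list had UMIs in both classes. Their summed level on day 13 was 22463 counts-per-million (CPM, a share of all gene UMIs of the summed cells) in Foxp3-positive and 10207 CPM in Foxp3-negative cells, with ranges over sets of 18891 to 25577 and 2559 to 13220. On day 19 it was 10179 and 6716 CPM, with ranges of 809 to 17069 and 4204 to 7103. In cells with at most 10 class II UMIs, called class II-low here, 20 of the genes still had UMIs on day 13 and 18 on day 19 in Foxp3-positive cells, and the summed levels were 1171 and 879 CPM on day 13 and 1029 and 1246 CPM on day 19. The part of this RNA in other results was not tested. Values for class II-low cells, a cut chosen after seeing the data, are given beside part of the results.

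Ighm, an immunoglobulin gene on the list of B cell markers, stood higher in Foxp3-positive than in Foxp3-negative cells on both days, and markers of NK and gamma-delta cells summed to less. The CD8 genes were at 0 through the selection. The plasma cell gene Jchain was at 0 in Foxp3-positive cells of both days, while 8 of 9 B and plasma cell markers had UMIs on day 13 and 3 on day 19, when the B cell genes Cd79a and Ms4a1 were at 0. In Foxp3-negative cells the counts were 3 and 8 of 9. One cell held 90.5% of the Cd79a and all of the Ms4a1 UMIs of day 13. The summed level of the 9 B and plasma cell markers was 454.7 CPM against 121.7 on day 13 (313 to 729 over the Foxp3-positive sets) and 271.8 against 118.3 on day 19 (231 to 285). Ighm made up 317 and 256 CPM of it, against 114 and 84.2 CPM in Foxp3-negative cells. The part of these markers in other results was not tested. Of 8 NK and gamma-delta markers 4 had UMIs on day 13 and 1 on day 19, for a summed 7.01 and 2.46 CPM against 35.7 and 30.8 CPM in Foxp3-negative cells. Of 11 glial and tumour markers 5 and 4 had UMIs, with Gfap, Olig1, Sox2 and Aqp4 at 0, and Vim, which T cells also express, made up 2036 of the 2133 CPM on day 13. The other measured members of the list were lower than in Foxp3-negative cells on both days, Cd9 at 39.7 against 101 CPM and Mbp at 47.5 against 83.8 CPM on day 13, and the list's median ratios were -0.82 and -1.14. With Vim the list stood at 2383 CPM on day 19, against 1092 and 1467 CPM in Foxp3-negative cells, and its part in other results was not tested. The 15 cycling genes, Mki67 at 0 among them, summed to 511 against 666 CPM on day 13 and 722 against 591 CPM on day 19.

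A single Foxp3 UMI was the basis for 18 members on day 13 and 11 on day 19, 2 UMIs for 16 and 10, and 3 or more for 95 and 64. The median was 4 UMIs on both days and the highest 18 and 15. Levels of Il2ra stood between the classes in cells with 1 Foxp3 UMI on day 13. They were 64.3 CPM without Foxp3, 102 with 1 UMI, 262 with 2 to 4 and 332 with 5 or more. On day 19 they were 84.2, 329, 367 and 535 CPM. Ccr8 went the other way on day 13, at 71.5 CPM without Foxp3, 21.5 with 1 UMI, 121 with 2 to 4 and 248 with 5 or more, and Itgb8 was at 8.94 and 10.8 CPM without Foxp3 and with 1 UMI. Cd40lg, the helper T cell ligand of CD40, was already low with 1 UMI, at 21.5 CPM against 202 without Foxp3 on day 13 and at 84.1 against 200 on day 19. At the depth limit, 14 members of day 13 and 8 of day 19 had under 5500 UMIs. Between 4500 and 5000 UMIs, 24 and 14 further Foxp3-positive barcodes met the other criteria.

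Foxp3-positive cells made up about the same share of the gate on both days, but a larger share of all deeply sampled CD4 barcodes on day 19. After thinning each cell to 5000 UMIs, Foxp3 was seen in 113 of 434 cells on day 13 (26.04%, 22.0 to 30.4%, 29.7% before thinning) and in 77 of 295 on day 19 (26.1%, 21.2 to 31.5%, 28.8% before thinning). In CD8 T cells of the same sets, which should lack the gene, the thinned share was 37 of 2273 (1.63%) and 13 of 1103 (1.18%), where the median cell had 6878 and 8088 UMIs. The median cell of the CD4 gate had 6700.5 and 7310. The sets of day 13 ranged from 22.0 to 28.8%. Those of day 19 were at 44.4% (9 gate cells), 22.8%, 19.4% and 41.5%, so the sets of day 19 were further apart than the days. Without the limits on macrophage RNA and Mki67 the days were less alike. Unthinned, Foxp3 was then seen in 230 of 797 CD4 barcodes on day 13 and in 287 of 794 on day 19.

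The cells carried the genes that mark tumour regulatory T cells. Expression is given as CPM of the summed UMIs, and the ratio of classes as log2 with an exact interval. Because the class was chosen by Foxp3 in these same cells, ratios to Foxp3-negative cells are a description and are not tested. At least 2-fold higher values were seen for 3.24% of 4783 measured genes on day 13 and 2.65% of 3805 on day 19, and at least 2-fold lower ones for 1.76% and 2.18%. Measured means 100 or more UMIs in both sums together. Higher values in all 8 sets were seen for 4.82% of genes and lower ones for 4.53%.

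Il2ra, which codes for CD25, the alpha chain of the high-affinity IL-2 receptor, was at 356, 255, 268 and 257 CPM in Foxp3-positive cells of sets 1 to 4 of day 13 and at 98.02, 43.4, 43.6 and 97.1 CPM in Foxp3-negative cells. Day 19 gave 530, 422, 376 and 504 CPM against 127, 91.9, 107 and 14.5 CPM. The ranges did not overlap on either day, and the summed ratio was 2.09 (1.81 to 2.37) on day 13 and 2.39 (2.11 to 2.67) on day 19. Ikzf2, which codes for Helios, a factor enriched in regulatory T cells of thymic origin, was at 416, 365, 365 and 341 CPM against 196, 52.4, 51.3 and 138 on day 13. Day 19 gave 698, 411, 649 and 480 CPM against 0, 101, 169 and 43.4. Every set was higher in the Foxp3-positive cells, and the ratio was 1.96 and 2.19.

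Ccr8, a chemokine receptor of tumour regulatory T cells, was less class-bound. It stood at 164, 107, 169 and 278 CPM against 111, 35.9, 100 and 44.7 on day 13, and at 446, 360, 367 and 352 CPM against 25.3, 201, 194 and 220 on day 19. It was higher in Foxp3-positive cells in every set, with ratios of 1.24 (0.94 to 1.54) and 0.87 (0.64 to 1.09), although the ranges over sets overlapped on day 13 and Foxp3-negative cells of day 19 exceeded Foxp3-positive cells of day 13 in total (199 against 169 CPM). The ratio of day 13 was 0.80 without set 4. Itgb8, the integrin chain that activates latent TGF-beta, was too sparse for the 100 UMI minimum, with 39 and 44 UMIs in Foxp3-positive and 21 and 34 in Foxp3-negative cells. Its levels were 30.4 against 8.94 CPM and 54.1 against 18.7 CPM, higher in all 8 sets, and the ratio of day 13 was 2.42 without set 1.

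The share of cells with a UMI gave the same picture, read against CD8 cells as the background of free RNA or their own expression. Median depth was 8159, 6363 and 6878 UMIs in Foxp3-positive, Foxp3-negative and CD8 cells on day 13 and 7485, 7266 and 8088 on day 19. Thinned to 5000 UMIs, Ikzf2 was seen in 79.1% of Foxp3-positive cells on day 13 and 83.5% on day 19 (86.8 and 92.9% before thinning), against 19.3 and 23.3% of Foxp3-negative and 30.6 and 30.3% of CD8 cells. Il2ra was seen in 48.8 and 70.6% (64.3 and 82.4% before thinning), against 11.1 and 15.7% and, in CD8 cells, 7.35 and 11.7%. Ccr8 was seen in 29.5 and 55.3% (38.0 and 61.2% before thinning), against 11.8 and 31.0% of Foxp3-negative and 2.29 and 4.62% of CD8 cells, so its detection in the Foxp3-negative class lay well over that in CD8 cells. Itgb8 was seen in 15.5 and 20% (19.4 and 30.6% before thinning), against 2.95 and 7.62% and, in CD8 cells, 0.264 and 0.453%.

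**Figure D1:**
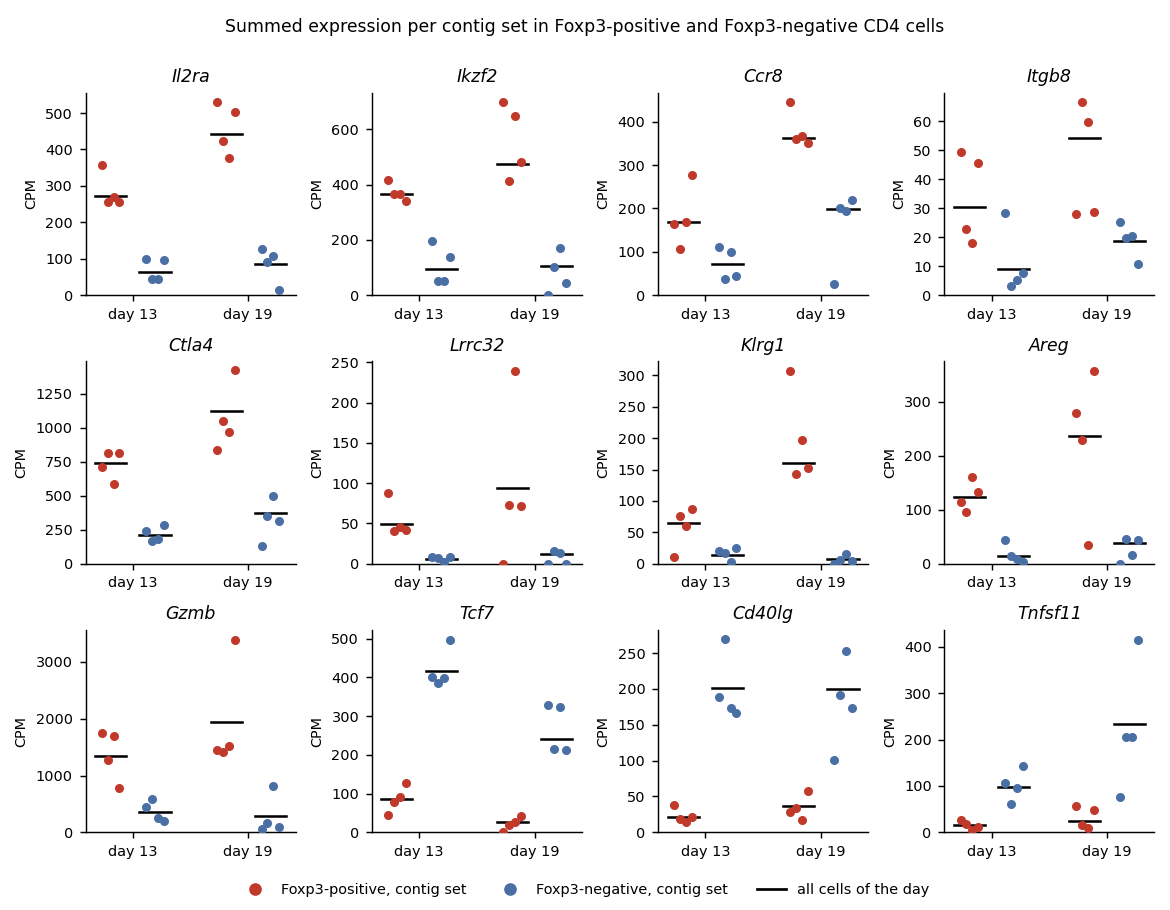
CPM (vertical axis, linear from 0) of 12 genes in Foxp3-positive (red) and Foxp3-negative (blue) CD4 cells on days 13 and 19; each point is 1 contig set and the black bar is the level over all cells of the day. Il2ra, Ikzf2 and Ctla4 sit higher in the Foxp3-positive cells in all 8 sets, and Tcf7, Cd40lg and Tnfsf11 sit lower in all 8.

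A list of 18 regulatory T cell identity genes, which holds Il2ra, Ikzf2 and Ccr8 again, had 13 measured members on day 13 besides Foxp3, of which 8 were at least 2-fold higher and none lower, with a median ratio of 1.33 against 0.02 over all genes. On day 19, 12 were measured, 8 were at least 2-fold higher and none lower, with a median of 1.29 against 0.01. In class II-low cells the medians were 1.51 and 1.42. Of the 8 higher members, 3 on day 13 and 2 on day 19 were among the genes already given, and the others were Ctla4, Tnfrsf4, Capg and Izumo1r on both days, Swap70 on day 13, and Tnfrsf18 and Socs2 on day 19. Ctla4, which removes costimulatory ligands from antigen-presenting cells, was at 739 against 211 CPM on day 13 and 1122 against 370 on day 19. Lrrc32 codes for GARP, which holds latent TGF-beta on the surface, and was at 49.1 against 5.96 CPM and 93.5 against 12.7. It missed the UMI minimum, with 63 and 76 UMIs in Foxp3-positive cells, and its ratios were 3.04 (2.19 to 3.99) and 2.88 (2.195 to 3.63), or 4.07 without set 2 of day 19. Ikzf4, which codes for the Helios relative Eos and missed the minimum too, had ratios of 2.85 and 2.16 (1.11 without set 2 of day 19).

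Nrp1, a receptor associated with thymic origin, was at 70.1 against 41.7 CPM on day 13 but at 44.3 against 66.6 on day 19, with ratios of 0.75 and -0.59 (-1.22 without set 3 of day 19). Lrig1 was lower than in Foxp3-negative cells on both days (-0.37 and -0.58). Gpr83 had 4 and 2 UMIs in Foxp3-positive cells and missed the minimum.

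The IL-2 pathway showed its receptor and its cytokine on opposite sides. Of 15 genes measured on each day, 1 and 2 were at least 2-fold higher and 2 lower on both, with medians of 0.15 and 0.17. Il2 itself had 2 UMIs in Foxp3-positive cells on each day, against 388 and 146 in Foxp3-negative cells. One Foxp3-negative cell held 91.5% of the Il2 UMIs of day 13 and 30.8% of those of day 19, and Il2 was seen in 9.5% of Foxp3-negative cells on each day against 1.6 and 1.2% of Foxp3-positive cells, before thinning. The ratios were -6.73 (-9.78 to -4.87) and -5.03 (-8.09 to -3.15). The day 13 value was -2.74 without set 3, which held that cell, and -7.75 and -7.48 without sets 1 and 2. The day 19 value was -3.56 without set 2.

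Signal-chain genes of the same receptor differed less. Il2rb, the chain shared with the IL-15 receptor, was at 513 against 463 CPM and 664 against 537, and Cish, a feedback inhibitor induced by STAT5, had ratios of 0.62 and 0.37. Socs2, another such inhibitor, was at 101 against 54.0 CPM and 108 against 29.2. The survival gene Bcl2 was lower in all 8 sets, at 26.5 against 89.8 CPM and 23.4 against 108, and its day 19 ratio of -2.21 was -1.15 without set 2 and -2.92 without set 4.

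Genes of suppressive molecules were mostly higher. Of 22 listed, 16 were measured on each day, 9 and 7 were at least 2-fold higher and none lower, with medians of 1.15 and 0.67 (1.54 and 0.71 in class II-low cells). Gzmb, which codes for granzyme B, a protease by which lymphocytes kill, was at 1748, 1275, 1693 and 773 CPM against 454, 581, 246 and 202 on day 13, and at 1451, 1407, 1512 and 3394 CPM against 50.6, 160, 808 and 86.7 on day 19. Each set was higher in Foxp3-positive cells, with ratios of 1.87 and 2.76, although 1 cell held 26.5% of the Gzmb UMIs of day 19 and the ratio was 2.15 without set 4 and 3.81 without set 3. Prf1, the pore-forming partner of granzymes, had 9 and 34 UMIs, or 7.01 and 41.8 CPM, against 5.11 and 15.4 CPM.

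Areg, a growth factor by which regulatory T cells support tissue repair, was at 115, 94.8, 160 and 134 CPM against 43.9, 13.5, 8.98 and 3.88 on day 13. Day 19 gave 279, 229, 34.2 and 357 CPM against 0, 45.0, 15.3 and 43.4. It was higher in all 8 sets at ratios of 3.05 and 2.66, but 1 cell held 34.4% of the day 19 UMIs, and in class II-low cells the ratio of day 19 was 1.76. Without set 1 the ratio of day 13 was 3.76, and without set 2 that of day 19 was 3.27. Il10, a cytokine that dampens macrophages and T cells, was at 26.5 against 6.81 CPM and 43.0 against 8.25, from 34 and 35 UMIs. Its ratio of day 19 was 2.38 with set 2 and 0.38 without it: that set stood at 68.9 CPM, set 4 at 19.0, and sets 1 and 3 had no UMI. The day 13 ratio was 1.96, or 0.96 without set 2 and 2.64 without set 1.

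Of the adenosine pathway, Entpd1 (CD39), which degrades extracellular ATP, was at 77.9 against 28.1 CPM and 111 against 30.8, higher in all 8 sets. Nt5e (CD73), which makes adenosine, was at 85.6 against 57.9 CPM and 108 against 45.7. Il1r2, a decoy receptor for IL-1, was at 146 against 37.0 CPM on day 13 but at 166 against 212 on day 19, and the Foxp3-negative level differed between days by 2.52 against 0.19 in Foxp3-positive cells. Lag3, an inhibitory receptor for class II, had ratios of 1.16 and 0.20, the first of which was 0.71 without set 3. Tgfb1 itself differed little, with ratios of 0.45 and 0.39.

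Costimulatory genes lay on both sides. Of 14 costimulatory genes, 13 and 12 were measured, 3 and 5 were at least 2-fold higher and 2 and 3 lower, with medians of 0.52 and 0.75. In class II-low cells 5 were higher on each day and 1 and 2 lower, with medians of 0.78 and 0.81. The higher ones in all cells were Tnfrsf1b, Tnfrsf9 and Tnfrsf4 on both days with Tnfrsf18 and Cd27 on day 19, and the lower ones Slamf6 and Cd40lg on both with Cd226 on day 19. Tnfrsf9 (4-1BB) was at 753 against 141 CPM and 1056 against 325, Tnfrsf4 (OX40) at 1001 against 369 and 1661 against 664, and Tnfrsf18 (GITR) at 704 against 365 and 1028 against 459. Each of these TNF receptor family members was higher in all 8 sets. Slamf6, an adhesion receptor of less differentiated T cells, was lower in all 8, at 61.5 against 140 CPM and 62.7 against 132, although its day 19 ratio was -0.56 without set 2 in place of -1.07.

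Inhibitory receptors were divided. Of 12 genes, 8 and 9 were measured, 4 and 2 were at least 2-fold higher and 1 lower on each day. Tigit was at 461 against 183 CPM and 692 against 402. Pdcd1, which codes for PD-1, was lower in total on both days, at 144 against 209 CPM and 234 against 372, and Cd200 was at 84.9 against 62.6 and then 43.0 against 160.

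Klrg1, a receptor of terminally differentiated effector cells, had the highest day 19 ratio of all named genes with 100 or more UMIs, Foxp3 aside. It was at 11.0, 76.2, 60.3 and 87.9 CPM against 20.6, 16.5, 2.57 and 25.2 on day 13 and at 307, 142, 197 and 152 CPM against 0, 6.31, 15.3 and 3.61 on day 19. Foxp3-positive cells were higher in 7 of 8 sets, the exception being set 1 of day 13, and the ratios were 2.18 (1.59 to 2.80) and 4.38 (3.58 to 5.29). One cell held 22.6% of the day 13 UMIs. Thinned, Klrg1 was seen in 13.2 and 24.7% of Foxp3-positive cells (17.1 and 28.2% before thinning), against 2.62 and 3.33% of Foxp3-negative and 2.51 and 0.907% of CD8 cells.

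Other genes of tissue regulatory T cells varied. Of 20 listed, 15 were measured on each day, 9 and 5 were at least 2-fold higher and 0 and 1 lower, with medians of 1.24 and 0.75 (7 and 5 higher and 1 lower in class II-low cells). Itgae, which codes for the integrin chain CD103 that binds epithelial cadherin, was at 77.9 against 13.6 CPM and 48.0 against 18.2. On day 19 it missed the minimum, and its ratio was 0.79 without set 2. Il1rl1, the receptor for IL-33, had 19 and 15 UMIs and missed the minimum, and Gata3 had ratios of -0.65 and -0.04. Penk, which codes for proenkephalin, was at 17.9 against 30.6 CPM and 375 against 421, and single cells held 87.0 and 61.3% of its UMIs in Foxp3-positive cells. Its class ratio ran from -3.47 to 3.03 over the sets left out on day 13 and from -1.68 to 0.54 on day 19, so its sign depended on the set left out.

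Among 32 transcription factors, 22 and 21 were measured besides Foxp3, 3 and 2 were at least 2-fold higher and 2 and 1 lower. Prdm1, which codes for Blimp-1, a driver of effector differentiation, was at 39.7 against 15.7 CPM and 73.8 against 11.6, with a day 19 ratio of 2.67, or 2.08 without set 2. It missed the minimum on both days, with 51 and 60 UMIs in Foxp3-positive cells, and is not among the counted factors. Maf, which supports Il10 expression, was at 216 against 104 CPM and 327 against 113, and its day 13 ratio was 0.88 without set 3 in place of 1.06. Batf and Irf4, which cooperate in effector regulatory T cells, had ratios of 0.09 and -0.21 for Batf and -0.21 and -0.38 for Irf4. Satb1, a chromatin organiser, was at 24.1 against 90.6 CPM on day 13 but at 71.3 against 68.8 on day 19, where the ratio was 0.73 without set 2.

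Tcf7 codes for TCF-1, a factor of naive and stem-like T cells. It was at 43.8, 78.3, 90.4 and 127 CPM against 400, 386, 399 and 497 on day 13, and at 0, 20.01, 25.6 and 42.8 CPM against 329, 216, 322 and 213 on day 19. The ranges were apart on both days, with ratios of -2.26 (-2.55 to -1.97) and -3.22 (-3.93 to -2.59). On day 19 the Foxp3-positive sum was 21 UMIs, of which 1 cell held 28.6%. Thinned, it was seen in 23.3 and 7.06% of Foxp3-positive cells (27.1 and 11.8% before thinning) against 70.5 and 53.3% of Foxp3-negative and 60.9 and 41.4% of CD8 cells. Of 16 naive and central memory genes, 15 and 12 were measured, 0 and 1 were at least 2-fold higher and 5 lower on each day, with medians of -0.89 and -0.81 (-0.83 and -0.50 in class II-low cells). Dapl1 had no UMI in Foxp3-positive cells on either day, against 55 and 66, which puts its ratio at -3.32 and -3.30 or lower when the floor of 3 counts per day stands in for 0.

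Effector cytokines and helper ligands were low. Of 23, 11 were measured on each day, 2 and 1 were at least 2-fold higher and 6 and 7 lower, with medians of -1.53 and -1.94. Cd40lg was at 38.4, 18.5, 15.1 and 21.1 CPM against 188, 269, 173 and 167 on day 13, and at 27.9, 33.3, 17.1 and 57.0 CPM against 101, 192, 253 and 173 on day 19. Its ranges did not overlap, with ratios of -3.26 and -2.44, and 1 cell held 26.7% of the 30 Foxp3-positive UMIs of day 19. Tnfsf8 (CD30 ligand) and Tnfsf11 (RANK ligand) were also lower in all 8 sets, at 14.8 against 114 and 33.2 against 172 CPM for Tnfsf8 and 14.8 against 98.3 and 24.6 against 234 CPM for Tnfsf11. On day 19, 1 Foxp3-positive cell held 59.3% of the 27 Tnfsf8 UMIs and 1 held 35% of the 20 Tnfsf11 UMIs. Ifng was at 41.3 against 120 CPM and 13.5 against 220, with a day 19 ratio of -4.02 that ran from -4.84 to -3.14 over sets left out and rests on 11 UMIs in Foxp3-positive cells. The genes on the higher side on both days were the chemokines Ccl4 and Ccl3, and on day 19 3 of the 11 had a ratio above 0. Ccl4 was at 346 against 105 CPM and 521 against 211 (ratios of 1.08 and 0.22 without set 2 of the day). Ccl3 was at 57.6 against 17.9 CPM and 88.5 against 59.4 (ratios of 1.69 and 0.58).

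Homing receptors were mixed. Of 30 chemokine receptor and adhesion genes, 24 and 20 were measured, 5 and 3 were at least 2-fold higher and 2 and 3 lower, with medians of -0.17 and -0.21. In class II-low cells 3 and 4 were higher and 1 and 4 lower. Ccr2, the receptor of monocyte-attracting chemokines, was at 132 against 58.7 CPM and 186 against 42.4, and Itgav, the partner chain of Itgb8, at 164 against 62.1 CPM and 294 against 123, both higher in all 8 sets, although without set 3 their day 13 ratios were 0.84 and 0.88. Ccr7, which guides cells to lymph nodes, was at 522 against 655 CPM and 293 against 595. Its day 19 ratio of -1.02 ran from -2.02 without set 2 to -0.74 without set 4. In class II-low cells its day 13 ratio was -1.22 in place of -0.33.

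Of 21 Th1 and cytotoxic genes, 18 and 15 were measured, 3 and 2 were at least 2-fold higher and 4 and 2 lower, with medians of -0.11 and 0.17. In class II-low cells 2 were higher on each day and 3 and 4 lower. Granzymes differed among themselves: beside the high Gzmb, Gzma was at 10.1 against 166 CPM and 13.5 against 27.5, and Gzmk was at 15.6 against 88.5 CPM and then had no UMI against 94. The Gzma ratio of day 19, -1.02, from too few UMIs for the minimum, ran from -4.42 without set 3 to -0.10 without set 2, and turned to 2.36 with a minimum of 8000 gene UMIs and 0.10 without myeloid UMIs. The Gzmk ratio of day 13, -2.51, ran from -5.24 without set 2 to -1.86 without set 3. Of 29 immediate early genes of T cell activation, 27 and 26 were measured, none was at least 2-fold higher and 1 was lower on each day. Over all genes 3.24 and 2.65% were higher and 1.76 and 2.18% lower, so the counts of this list were near those shares. The 1 that was lower on each day was Egr1, a factor induced by TCR signals, at 415 against 831 CPM and 109 against 346, lower in all 8 sets, with 24.7% of the Foxp3-positive UMIs of day 19 in 1 cell.

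**Figure D2:**
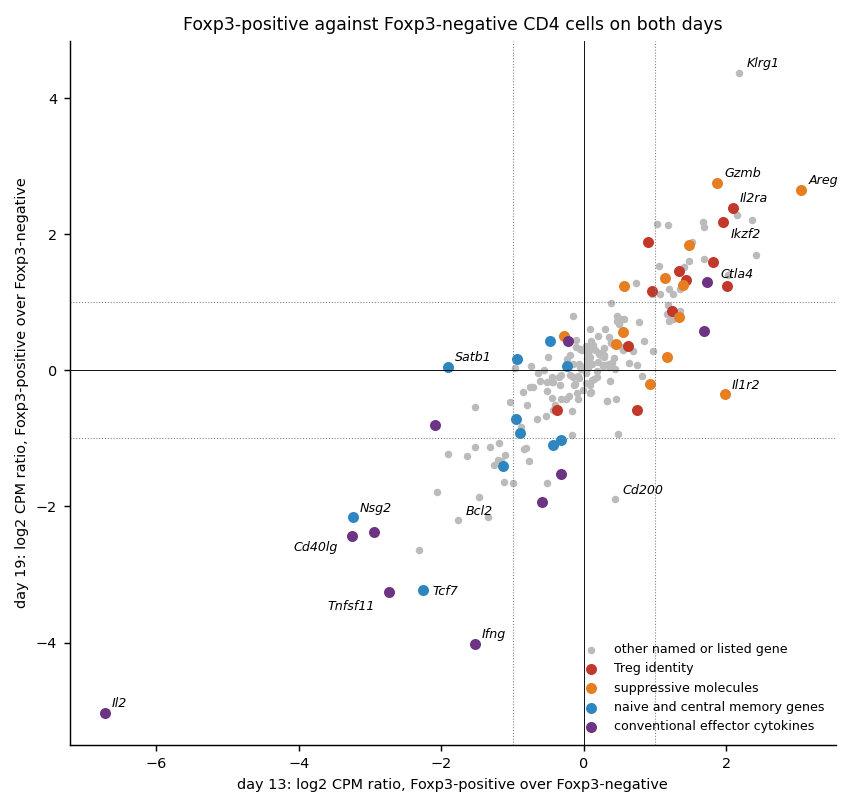
Log2 ratio of CPM between Foxp3-positive and Foxp3-negative CD4 cells on day 13 (horizontal) and day 19 (vertical) for listed or named genes measured on both days; dotted lines mark 2-fold. Klrg1 lies highest on day 19 at 4.38 and Areg furthest right on day 13 at 3.05, while Il2, Cd40lg, Tnfsf11 and Tcf7 lie at the lower left and Il1r2, Satb1 and Cd200 pass 2-fold on 1 day only.

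All measured genes were also ranked by the smaller of their 2 daily ratios, without genes that owed over 20% of a sum to 1 cell, which left out Areg, Gzmb and Klrg1. The 15 highest with the same sign on both days were Ctla4, Ikzf2, Il2ra, Arl5a, Lyn, Tnfrsf9, Tnfrsf4, Mt1, Izumo1r, Matk, Glrx, Rap2a, Snx9, Agpat4 and Entpd1. Izumo1r, the folate receptor 4 of regulatory T cells, was at 237 against 94.0 CPM and 338 against 123. Glrx, a glutaredoxin that reverses protein thiol oxidation, was at 430 against 134 CPM and 523 against 122. Lyn, a kinase common in B and myeloid cells, was at 126 against 47.7 CPM and 95.9 against 33.6, and its ratios were larger in class II-low cells, at 2.92 and 2.25 against 1.404 and 1.51, while that of day 19 was 0.61 without set 2. Mt1 had a day 19 ratio of 1.89, or 2.68 without set 2.

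Tcf7, Cd40lg, Tnfsf8, Tnfsf11, Bcl2 and Il2 were left out of this ranking by their single-cell share, and by size they would have been among the 15. The 15 lowest were Slamf6, Pde7a, Dennd2d, S1pr1, Gtf2i, Cd9, Itgb1, Themis, B4galnt1, Evl, Rgcc, Rnf19a, Sidt1, Ehd3 and Stk26. Themis, which tunes TCR signalling, was at 16.4 against 81.3 CPM and 12.3 against 76.5 and was lower in all 8 sets. S1pr1, the receptor that guides exit from tissue, was at 57.6 against 127 CPM and 41.8 against 111. Itgb1, the integrin beta-1 chain, was at 251 against 581 CPM and 212 against 528. Gtf2i passed 2-fold on day 19 through set 2, with a ratio of -1.26, or -0.58 without that set.

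Within the Foxp3-positive class, detection of Gzmb differed with that of Klrg1 and of Tcf7 on day 13, and the intervals of all 3 pairs of these genes overlapped on day 19. On day 13, thinned to 5000 UMIs, Gzmb was seen in 15 of 17 Klrg1-positive cells (88.2%, 63.6 to 98.5%) and in 41 of 112 without Klrg1 (36.6%, 27.7 to 46.2%). On day 19 it was seen in 15 of 21 (71.4%, 47.8 to 88.7%) and 38 of 64 (59.4%, 46.4 to 71.5%), whose intervals overlap. Tcf7 had no UMI in the 17 and 21 Klrg1-positive cells, which allows up to 19.5 and 16.1% of such cells with a UMI and says nothing of cells that express it unseen. It was seen in 26.8% (18.9 to 35.98%) and 9.38% (3.52 to 19.3%) of those without Klrg1, whose intervals overlap with these limits. On day 13 it was also rarer with Gzmb, at 3 of 56 (5.36%) against 27 of 73 (37.0%), but not on day 19, at 4 of 53 (7.55%) against 2 of 32 (6.25%). Areg did not follow Klrg1: it was seen in 23.5 and 19.0% of Klrg1-positive and 21.4 and 17.2% of Klrg1-negative cells. These shares compare cells within 1 capture and are descriptions.

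Members were not chosen by their difference between days, but the comparison of day 19 with day 13 rests on 1 capture each and on the cells that the gate left. The limit on macrophage RNA alone removed 34.8% of CD4 barcodes with Foxp3 on day 13 and 56.4% on day 19. At least 2-fold higher on day 19 were 0.621% of 3220 measured genes and at least 2-fold lower 2.92%, against 1.22 and 2.42% of 5166 in Foxp3-negative cells. Levels of all 4 sets of day 19 lay above all 4 of day 13 for 5.5% of genes and below them for 5.59%, against 4.28 and 4.41% in Foxp3-negative cells. In class II-low Foxp3-positive cells the share of genes at least 2-fold apart in either direction was 1.62% in place of 3.54%.

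Of 13 identity genes measured between the days, 1 was at least 2-fold higher on day 19 and none lower. Ratios were above 0 for 10 and below for 3, with a median of 0.51 (0.48 in class II-low cells and 0.34 with Mki67-positive cells kept), and the median of Foxp3-negative cells was 0.48. The gene past 2-fold was Ccr8, at 1.10 (0.84 to 1.36), or 0.81 without set 2 of day 13 and 0.88 in class II-low cells, against 1.47 in Foxp3-negative cells. All sets of day 19 stood above all of day 13 for Ccr8, and the same held for Il2ra (0.69, 0.48 to 0.91), Ctla4 (0.60), Tnfrsf4 (0.73), Tnfrsf18 (0.55), Tigit (0.59) and Icos (0.48). Foxp3 itself was at 475 and 536 CPM, a ratio of 0.17 (-0.01 to 0.35). As the selection asked for at least 1 Foxp3 UMI per cell, this level is set in part by the rule and is not comparable with the other genes.

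Klrg1 and Tcf7 also differed between the days. Klrg1 was at 65.4 and 160 CPM (1.29, 0.88 to 1.70), with all sets of day 19 higher, while in Foxp3-negative cells it was at 14.5 and 7.70 CPM. Its ratio was 0.96 with Mki67-positive cells kept, 0.97 with a minimum of 1000 gene UMIs, 0.81 in class II-low cells and 0.42 with cells thinned before the gate. Tcf7 was at 87.2 and 25.8 CPM (-1.76, -2.50 to -1.07), with all sets of day 19 lower, and its ratio was -0.79 in Foxp3-negative cells. Gzmb ranges overlapped between days, at 1339 and 1938 CPM in total and with a class II-low ratio of -0.10 in place of 0.53.

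The type I interferon response was lower on day 19 in both classes. Interferon-induced genes encode antiviral sensors and effectors and mark exposure to interferon. Of 18 measured genes, 7 were at least 2-fold lower and none higher in Foxp3-positive cells, with all 18 lower on day 19 and a median of -0.91 against 0.02 over all genes. The class II and myeloid RNA given above was also lower on day 19, and its part in this list was not tested. In Foxp3-negative cells it was 10 of 18 with a median of -1.09. In class II-low Foxp3-positive cells 5 of 17 were at least 2-fold lower and the median was -0.46. Between the classes 0 of 18 genes were 2-fold apart on either day, where 4.997 and 4.84% of all genes were, and 13 and 14 of 18 had ratios above 0, with medians of 0.12 and 0.33 against 0.02 and 0.01 over all genes.

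Ifit3, a translation-blocking effector of the response, was at 318, 558, 660 and 478 CPM in the Foxp3-positive sets of day 13 and at 0, 160, 222 and 114 CPM on day 19. The days did not overlap, the ratio was -1.83 (-2.12 to -1.55), and it was -1.92 in class II-low and -1.58 in Foxp3-negative cells. Isg15, a ubiquitin-like modifier, was at 1255, 1986, 2009 and 2112 CPM and then at 112, 905, 931 and 770. Its ratio was -1.19 (-1.32 to -1.07), or -0.78 in class II-low cells. Irf7, the factor that amplifies the response, had a ratio of -0.997 in all members, of -0.44 in class II-low members and of -1.73 without set 2 of day 19.

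**Figure D3:**
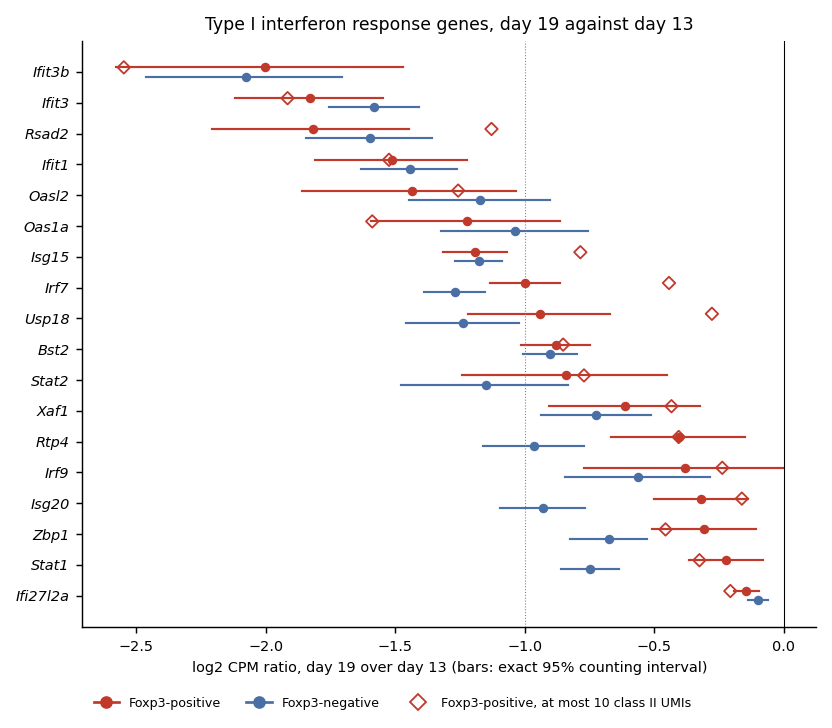
Log2 ratio of CPM, day 19 over day 13, for the 18 measured type I interferon response genes (one row each), in Foxp3-positive (red) and Foxp3-negative (blue) CD4 cells, with bars for exact 95% counting intervals and open diamonds for class II-low Foxp3-positive cells. All red and blue points lie under 0, in Foxp3-positive cells from -2.004 for Ifit3b to -0.14 for Ifi27l2a.

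Day ratios were ranked in the same way, without genes that owed over 20% of a Foxp3-positive sum to 1 cell, such as Penk (4.39) and Klrg1 above. The ratio of Penk ran from 2.94 to 6.64 over sets left out. The 12 highest were Hilpda, Sv2c, Pdcd1lg2, Cenpb, Dap, Npm3, Ccr8, Sytl3, Ube2q1, Gtf2a2, Serpina3g and Fam162a. Hilpda, a lipid droplet protein induced by hypoxia, led with 30.4 and 95.9 CPM (1.66, 1.09 to 2.25), or 1.69 in class II-low cells and 1.36 in Foxp3-negative cells. Pdcd1lg2, which codes for the PD-1 ligand PD-L2, was at 31.1 and 76.2 CPM, with all sets of day 19 higher. Serpina3g, a protease inhibitor of activated lymphocytes, was at 164 and 333 CPM (1.02, or 0.72 without set 4 of day 19), while its ratio in Foxp3-negative cells was -0.11. The glycolysis list had none of 13 genes past 2-fold, 12 of 13 higher on day 19 and a median of 0.39, against 3 of 13 past 2-fold and 0.59 in Foxp3-negative cells.

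By the same rule, which left out Ifit3b, Egr1 and Tcf7, the 12 lowest were Fabp5, Ifit3, Rsad2, Oasl1, Ifit2, Myadm, Ogfrl1, Ifit1, Lst1, Tmem176a, Gngt2 and Ifit1bl1. The Ifit genes, Rsad2 and Oasl1 among them are interferon-induced, and their ratios in Foxp3-negative cells were between -1.44 and -2.12. Fabp5, a fatty acid carrier, had a ratio of -2.23, and Lst1, a myeloid gene, one of -1.50. In class II-low cells both were 0.17, so these day differences were absent from class II-low cells. Without set 2 of day 19 the ratios of Ifit2, Myadm, Ogfrl1, Lst1, Tmem176a and Gngt2 were further from 0, between -3.54 and -2.30, against -1.59 to -1.48 with it.

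Antibody tags are a readout that the selection did not use. Tag counts were expressed as tag CPM, the share of all tag UMIs of the summed cells, with 4819 and 4732 tag UMIs per Foxp3-positive and Foxp3-negative cell on day 13 and 2488 and 2587 on day 19. As a check of the stain, the CD4 tag separated the CD4 gate from CD8 cells by 0.55 and 1.10 on the log2 scale, while the CD8a tag gave -0.12 and -0.16, so the contrast of these tags was shallow. Among 47 tags whose genes were listed, RNA was at least 2-fold higher in Foxp3-positive cells for 17 and 14, and the tag for 1 on each day. That tag was not among the 17 on day 13 and was among the 14 on day 19. Over all 138 tags, 2 and 1 were at least 2-fold higher.

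The listed tag past 2-fold was CD357, raised against GITR, the product of Tnfrsf18. It stood at 1729, 3333, 3425 and 1839 tag CPM in Foxp3-positive cells of day 13 against 1313, 1523, 1031 and 1369, and at 10228, 4896, 4459 and 4338 on day 19 against 2905, 1902, 3755 and 1977. It was higher in all 8 sets without overlap between classes on either day, with ratios of 1.09 (1.00 to 1.19) and 1.04 (0.92 to 1.16). The 3 highest cells held 33.2% of the day 13 sum, and the ratio there was 0.68 in class II-low cells and 0.04 with cells thinned before the gate. It was 0.82 without set 3 on day 13 and 0.68 without set 2 on day 19. Per cell the median share was 1876 against 1014 tag CPM on day 13 and 4361 against 1601 on day 19.

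The CD25 tag differed less between the classes than Il2ra RNA, and whether it reports CD25 protein above the background of the stain was not tested. It stood at 598, 707, 673 and 655 tag CPM in the sets of day 13 against 589, 606, 585 and 599, a ratio of 0.17 (-0.003 to 0.34), higher in all 4 sets. On day 19 it stood at 259, 645, 818 and 610 against 769, 577, 662 and 754, a ratio of 0.05 (-0.24 to 0.34), higher in 2 of 4 sets. The median cell of either class had 3 CD25 tag UMIs on day 13 and 1 on day 19, and the isotype control tags gave ratios from -0.10 to 0.03. The upper bounds of 0.34 lie under 2-fold for the tag ratio on both days. They cover counting error only and, with the shallow contrast of the stain, set no limit on a difference in CD25 protein.

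Several other tags of genes with higher RNA lay near 0. CD152 (CTLA-4) gave -0.01 on both days, CD137 (4-1BB) -0.05 and -0.01, and KLRG1 -0.004 and 0.15, where the RNA ratios were between 1.60 and 4.38. CD134 (OX40) gave 0.57 on day 13, where 1 cell held 35.9% of the sum and 2 of 4 sets were higher, and 0.04 on day 19. The IA/IE tag for class II protein gave 0.64 and 0.58, and -0.11 and 0.26 in class II-low cells, higher in 3 of 4 and 1 of 4 sets. Among tags of genes outside the lists, CD23 had a ratio of 2.69 on day 13, where set 3 stood at 32896 tag CPM and the others between 1540 and 1790, and of -0.02 on day 19. The adhesion molecule CD54 (0.66 and 0.83), CD5, a brake on TCR signals (0.41 and 0.66), and Ly6A (0.47 and 0.53) were higher in all 4 sets of both days. These tags were named after their values were seen.

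**Figure D4:**
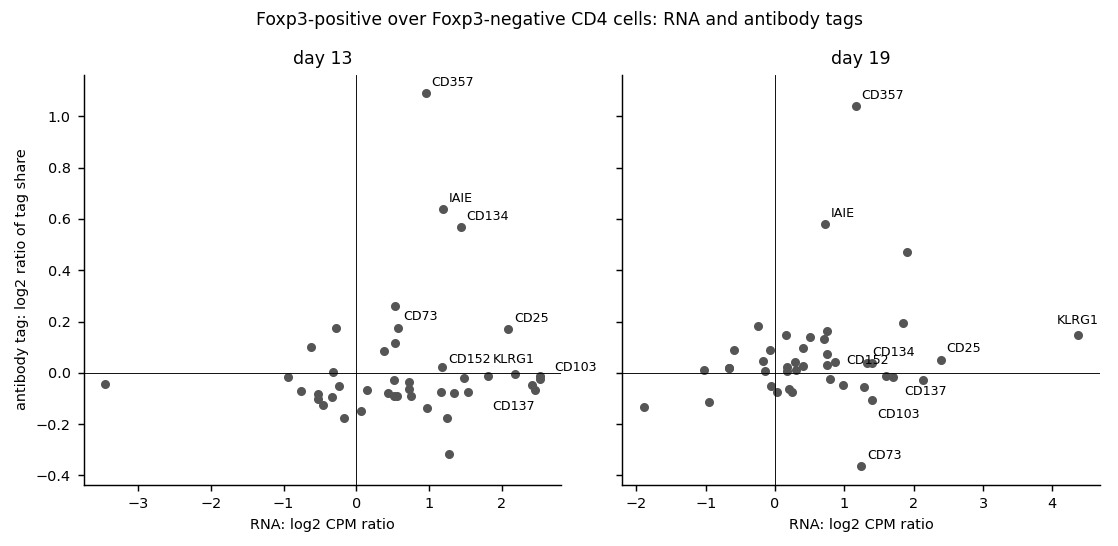
Log2 ratio of antibody tag share (vertical) against log2 ratio of RNA CPM (horizontal) between Foxp3-positive and Foxp3-negative CD4 cells for the tags of listed genes, on day 13 (left) and day 19 (right). CD357 is highest on both days at 1.09 and 1.04, while CD25, CD152, CD137 and KLRG1 lie near 0 on the tag axis at RNA ratios between 1.60 and 4.38.

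Clonal repetition was rare in Foxp3-positive cells of the gate. On day 13, 4 of 85 cells with 1 TRA and 1 TRB chain (4.71%, 1.30 to 11.6%) shared a clonotype with another Foxp3-positive cell of their set, among 83 clonotypes. In Foxp3-negative cells it was 20 of 205 (9.76%, 6.06 to 14.7%), or 4.12% when each set was reduced to the number of Foxp3-positive cells by its exact expectation. No clonotype of either class had more than 2 cells on that day, and the matched share lies within the Foxp3-positive interval.

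On day 19, 4 of 58 Foxp3-positive cells (6.90%, 1.91 to 16.7%) were in repeated clonotypes, among 56, and the largest had 2 cells. In Foxp3-negative cells it was 57 of 169 (33.7%, 26.6 to 41.4%), or 19.1% at matched numbers, and the largest was the 11-cell clonotype printed above. By set, the Foxp3-positive share was 4 of 33 in set 2 and 0 in sets 1, 3 and 4 (4, 8 and 13 cells), against matched Foxp3-negative shares of 25.5% in set 2, 0 in set 1, 3.53% in set 3 and 18.3% in set 4. The matched 19.1% lies above the upper bound of 16.7%, but the matched share fell within the Foxp3-positive interval under some settings. It was 15.7% with an upper bound of 19.6% under the doublet filter, 14.6% with 20.4% in class II-low cells, 11.2% with 16.9% at 0 macrophage UMIs and 19.3% with 21.2% without set 4. It stayed above the bound with 2 or more Foxp3 UMIs (17.9% with 13.5%), without set 1 (20.5% with 17.9%), without set 3 (21.6% with 19.2%) and with clonotypes by TRB alone (20.5% with 17.97%). All 4 repeated Foxp3-positive cells came from set 2, but the order of the classes was the same without that set. There, 0 of 25 Foxp3-positive cells repeated, with an upper bound of 13.7%, against a matched 10.6% of Foxp3-negative cells, which lies within the interval.

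The Foxp3-positive share of day 19 depended on which cells were admitted. With Mki67-positive cells kept, 15 of 88 (17.0%, 9.87 to 26.6%) were in repeated clonotypes, against 24.9% of Foxp3-negative cells at matched numbers. With a minimum of 1000 gene UMIs it was 19 of 94 (20.2%, 12.6 to 29.8%) against 15.3%, so the order of the classes turned, although 15.3% lies within the Foxp3-positive interval. With any amount of macrophage RNA it was 10 of 115 (8.70%, 4.25 to 15.4%) against 33.6%. With cycling and macrophage-RNA cells both kept, the shares were 36 of 177 (20.3%, 14.7 to 27.0%) and 190 of 379 (50.1%) without matching, and the largest clonotypes had 4 and 32 cells.

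**Figure D5:**
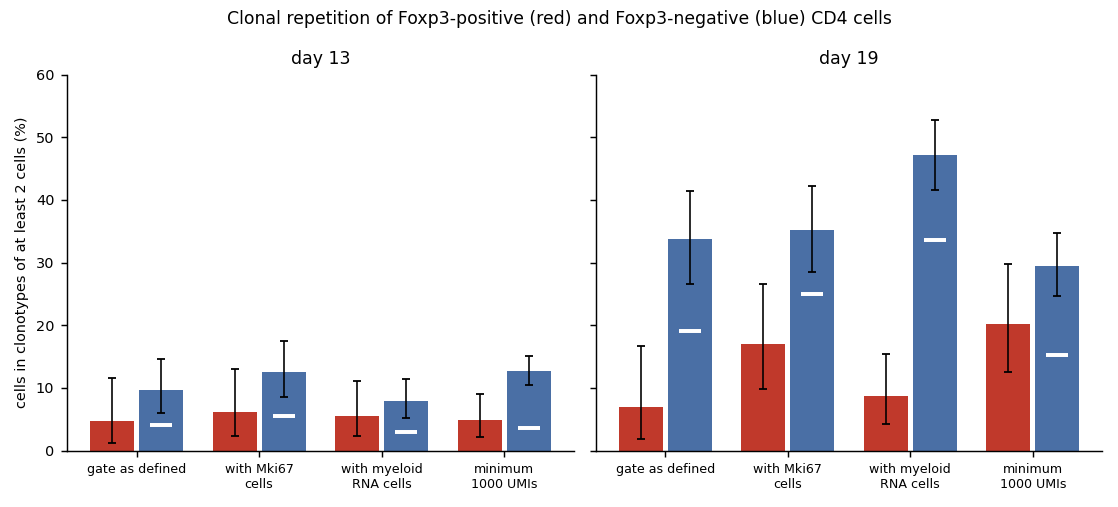
Share of cells (%, axis from 0) in clonotypes of at least 2 cells of their class and contig set, for Foxp3-positive (red) and Foxp3-negative (blue) CD4 cells on both days under 4 gates; black bars are exact binomial 95% intervals and white ticks the Foxp3-negative share at Foxp3-positive cell numbers. On day 19 the red bar is 6.90% in the gate as defined and 20.2% with a minimum of 1000 UMIs, where it passes the white tick.

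Most Foxp3-positive clonotypes were seen in 1 CD4 cell of the gate and so could not span the Foxp3 boundary. Of Foxp3-positive clonotypes, 3 of 83 on day 13 (3.61%, 0.752 to 10.2%) and 4 of 56 on day 19 (7.14%, 1.98 to 17.3%) also held a Foxp3-negative cell of the gate. Counted over clonotypes with at least 2 CD4 cells and 1 Foxp3-positive cell, this was 3 of 4 and 4 of 6. Further clonotypes of day 19 spanned the boundary only when cycling or macrophage-RNA barcodes outside the gate were counted. An example held 2 Foxp3-positive and 5 Foxp3-negative barcodes, all with macrophage RNA. None of the 5 Foxp3-negative clonotypes of day 19 with 3 or more cells, 27 cells in all, held a Foxp3-positive cell of the gate, although 2 of the 5, the 11-cell clonotype and 1 of 3 cells, each held 1 Foxp3-positive barcode with macrophage RNA outside it. Thinning to 5000 UMIs left a Foxp3 UMI in 113 of 129 and 77 of 85 members, so a cell without one can be a cell in which it was missed. How often that held for the Foxp3-negative cells of shared clonotypes was not tested.

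Receptors were also compared across sets and days. Of Foxp3-positive clonotypes, 1 of 83 on day 13 and 10 of 56 on day 19 recurred in any deeply sampled barcode of another set of the same day, against 3 of 195 and 32 of 132 Foxp3-negative clonotypes. None of the 138 different Foxp3-positive receptor pairs occurred on both days. With clonotypes merged over sets, the repeated share of day 19 was 10.3% (6 of 58 cells) in Foxp3-positive and 40.2% in Foxp3-negative cells.

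Cells left out by the gate were many. Of CD4 barcodes with Foxp3, 80 of 230 on day 13 (34.8%) and 162 of 287 on day 19 (56.4%) had more than 3 macrophage UMIs, against 38.4 and 50.3% of CD4 barcodes without Foxp3. A further 21 and 40 were cycling by Mki67. The levels given here describe Foxp3-positive cells without Mki67 and with little macrophage RNA.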

How the data were processed

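Per the labels, T cells sorted from intracranial CT2A tumours were captured once on day 13 and once on day 19 and read as RNA, antibody tags and TCR contigs. The deposited matrices hold raw UMI counts of 32285 genes, 138 antibody tags and 4 multiplexing tags for 736611 and 735849 barcodes, not filtered to cells, per the file headers written by Cell Ranger. The build mm10, bcl2fastq 2.20, Cell Ranger 4.0.0, STAR 2.7.5c, Seurat and R 4.1.2 are named per the submitters' processing notes, with no role given. The deposited contig tables, which list barcodes already called as cells, were used for barcodes and clonotypes.

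UMI counts were summed over the cells of a class and day and compared as CPM by log2 ratio with an exact conditional binomial interval (Clopper-Pearson, 95%). A sum of 0 was set to the floor of 3 counts, and no ratio was formed when both sums were 3 or fewer. Genes with 100 or more UMIs in both sums together counted as measured. Shares of cells were taken after thinning each cell to 5000 UMIs with seed 1. Foxp3-negative clonal repetition was reduced to the Foxp3-positive cell number of each set by its exact expectation. With 1 capture per day there was no test, no p-value and no replicate error. UMIs correct for amplification, so intervals cover counting error only. Ambient RNA was not subtracted, and no doublet caller was run: an alternative left out cells with 2 or more TRB contigs and the 8% with the most UMIs. The ratio and repetition steps were tested on simulated data.

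Members and gene lists were chosen with earlier results of these data known. Every gene of the lists could be named. Beyond them, the 15 highest and 15 lowest genes between classes and the 12 highest and 12 lowest between days were named, leaving out genes with over 20% of a sum in 1 cell, receptor, immunoglobulin, ribosomal and mitochondrial genes, and genes used in the selection. Python 3.11.15, numpy 2.4.6, scipy 1.17.1 and pandas 2.3.3 were used. Some listed genes and their tags are counted within their lists but are not reported here by name or drawn in the plots.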

Additional observations from a re-analysis of the deposited data

Results flagged for a closer look

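In 3 of 14 groups of 4 contig sets, the highest set lay far from the other three by its gap to the nearest set over the range. For 4 independent samples chance marks about 1 in 20 groups, but contig sets are not known to be separate animals, so these are given as values. Il2ra stood at 356 CPM in set 1 of day 13, with 18 Foxp3-positive cells, against 255 to 268 in the others. On day 19, Ccr8 was at 446 CPM in set 1, against 352 to 367, and the CD357 tag was at 10228 tag CPM there, against 4338 to 4896. That set held 4 Foxp3-positive cells.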

How the results depend on the processing

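Of the alternatives to the 14 main values, 172 stayed within a limit set for the kind of value and 36 did not, while for single genes and tags 3501 stayed and 309 moved. For identity list medians and tag ratios the limit was the standard deviation over contig sets. It was a fixed factor for percentages of genes, and the exact interval of the main value for shares of cells and clonotypes. A single gene stayed when it remained past 2-fold without a change of sign, or remained under 2-fold. Values at least 2-fold apart changed sign under 5 of 2680 alternatives, and values under 2-fold under 103 of 1135. The median class ratio of the identity list was 1.33 on day 13 and 1.29 on day 19. It became 1.76 and 1.72 against Foxp3-negative cells without Ikzf2, 1.80 and 1.54 with a minimum of 1000 gene UMIs, 0.97 and 0.80 with 8000, 1.46 and 1.49 with 30 UMIs per gene, and 1.51 and 1.42 in class II-low cells. On day 19 it was 1.46 with the doublet filter, 1.51 with sets weighted equally and 1.52 with cells thinned before the gate. Its day median of 0.51 became 0.45 with 2 or more Foxp3 UMIs, 0.35 with 1000 gene UMIs, 0.34 with Mki67 cells kept, 0.46 without myeloid UMIs, 0.59 with equal weights, 0.45 with 30 UMIs per gene and 0.37 thinned, and ranged from 0.42 to 0.53 over sets left out.

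The percentage of genes 2-fold apart between classes, 4.997 on day 13 and 4.84 on day 19, became 2.65 on day 13 with 8000 gene UMIs, and 8.03 and 7.91 with 30 UMIs per gene. Between days, 3.54% became 7.02% with equal weights, 6.05% with 30 UMIs per gene and 1.62% in class II-low cells, with a range of 3.07 to 7.61% over sets left out. Each alternative applied the UMI minimum to its own sums, so the genes counted can differ. The Foxp3 share of the gate became 20.05 and 20% with 2 or more Foxp3 UMIs and, on day 13, 33.3% with 8000 gene UMIs. Repetition in Foxp3-positive cells of day 19 became 20.2% with 1000 gene UMIs and 17.0% with Mki67 cells kept, and ranged from 0 to 8.89% over sets left out. That of day 13 ranged from 2.99 to 6.06% over sets left out. In the same way, the share of Foxp3-positive clonotypes with a Foxp3-negative cell ranged from 1.52 to 6% on day 13. On day 19 it ranged from 4 to 9.30%. The CD25 tag ratio of day 13 became 0.078 with 1000 gene UMIs. The 5 changes of sign among values past 2-fold were seen for Gzma between classes on day 19 (2.36 with 8000 gene UMIs and 0.10 without myeloid UMIs), Tnfsf8 between days (-1.39 with the doublet filter), and Fabp5 and Lst1 between days (0.17 each in class II-low cells). For each of these the cause was not tested. The class II limit, the gate with any number of myeloid UMIs and clonotypes merged over sets were chosen after seeing the data. No paired analysis was possible because each day is 1 capture, its contig sets are not matched to those of the other day, and sets are not known to be replicates. The classes share their sets, and their values set by set are given as descriptions. Depth limits genes under 100 UMIs and any value of day 19 set 1, which rests on 4 cells.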
